A study of Mus musculus with 2 samples.

Results

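Rln1, Insl6, Jak2, Cd274 and Pdcd1lg2 lie side by side on mouse chromosome 19, and H3K27me3, histone H3 trimethylated at lysine 27, was found as one compact stretch of peaks over and just upstream of Rln1, with the kinase gene Jak2 and both immune ligand genes free of peaks. The 5 genes were chosen by name for their position, from 21911 annotated protein-coding genes, after the marking of Rln1 in these same data was known. Their marking is therefore given as a description, with no test.

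Chromatin immunoprecipitation followed by sequencing was used to map the mark in MEL, an immortalized mouse erythroleukaemia line, in 1 group of 2 biological replicates. The labels name no treatment and no genotype beyond the line, and age and sex of the source are not recorded. Both replicates carry the same biosample identifier, and no source tells whether separate cultures were used, so differences between them can be technical. Peak lists hold no expression values, so the identity of the cells could not be checked against marker genes here. The authors deposited a list of peaks for each replicate, a list called on both together (the pooled list) and a subset of the pooled list named replicated. On chromosomes 1 to 19, X and Y these held 70901 peaks in replicate 1, 106995 in replicate 2, 69721 in the pooled list and 38298 in the replicated list. Of the 38298, 27732 overlapped a peak of both replicates, so a replicated peak is not always one found in each replicate. The depth of sequencing is unknown, since only peaks were given. Positions are on mm10, the UCSC name of GRCm38, counted from 1.

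H3K27me3 is written by Polycomb repressive complex 2 and is known for marking genes that are kept silent, often those that belong to other tissues. Rln1 encodes relaxin, a peptide hormone of the insulin superfamily made mainly in reproductive tissues, and Insl6 encodes a relative of relaxin known from the testis. Jak2 encodes the tyrosine kinase that carries the signal of the erythropoietin receptor and of other cytokine receptors. Cd274 and Pdcd1lg2 encode PD-L1 and PD-L2, the ligands through which cells restrain T cells by the receptor PD-1.

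In order along the chromosome, Jak2 runs forward from 29251828 to 29313080 (61253 bp), Insl6 lies on the reverse strand from 29321344 to 29325356 (4013 bp) and Rln1 on the reverse strand from 29331170 to 29334670 (3501 bp). Plgrkt, a plasminogen receptor gene that is not among the chosen genes, follows on the reverse strand from 29348599 to 29367390. Cd274 runs forward from 29367455 to 29388095 (20641 bp), with its start 65 bp from that of Plgrkt, and Pdcd1lg2 forward from 29410919 to 29471161 (60243 bp). The starts of Jak2 and Rln1 are 82842 bp apart. Because Rln1 is read on the reverse strand, bases upstream of it have the higher coordinates.

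The sequences before the start sites of Rln1, Jak2 and Pdcd1lg2 are shown because the marked start and the unmarked ones can be compared in them. The bases around the strongest replicated peak are added because that peak lies away from any start. Strongest here means the highest signal value between Insl6 and Plgrkt, which was above 84.5% of the replicated list. All these sequences are from RefSeq (GRCm38.p6) and from the genome of the same build, written 5′ to 3′ on the strand of the gene named, with each CG dinucleotide in capitals. The first line is chr19:29334671-29334920 on the reverse strand, the next chr19:29251553-29251802 and then chr19:29410669-29410918, both on the forward strand, and the last chr19:29337924-29338123 on the reverse strand.
Before the Rln1 start: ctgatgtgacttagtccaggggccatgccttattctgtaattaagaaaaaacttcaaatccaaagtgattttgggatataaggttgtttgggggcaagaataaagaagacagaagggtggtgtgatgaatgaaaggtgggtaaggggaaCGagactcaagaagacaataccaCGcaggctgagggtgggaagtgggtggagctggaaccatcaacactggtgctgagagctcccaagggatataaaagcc
Before the Jak2 start: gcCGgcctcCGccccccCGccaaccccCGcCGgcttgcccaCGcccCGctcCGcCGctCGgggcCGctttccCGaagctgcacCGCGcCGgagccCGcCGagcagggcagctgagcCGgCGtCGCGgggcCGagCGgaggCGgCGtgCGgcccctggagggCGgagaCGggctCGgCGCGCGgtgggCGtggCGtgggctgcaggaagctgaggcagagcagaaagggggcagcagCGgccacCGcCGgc
Before the Pdcd1lg2 start: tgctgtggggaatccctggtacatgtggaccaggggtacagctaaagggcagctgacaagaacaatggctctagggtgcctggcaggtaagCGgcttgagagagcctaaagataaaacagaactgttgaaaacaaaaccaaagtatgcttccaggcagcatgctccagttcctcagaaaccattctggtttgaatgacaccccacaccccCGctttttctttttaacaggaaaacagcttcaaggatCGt
Around the strongest replicated peak: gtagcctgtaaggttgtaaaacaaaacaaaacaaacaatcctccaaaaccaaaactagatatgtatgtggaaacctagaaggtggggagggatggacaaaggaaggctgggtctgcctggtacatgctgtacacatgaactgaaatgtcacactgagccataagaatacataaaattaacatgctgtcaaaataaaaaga

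The sequence before the Rln1 start held 2 CG dinucleotides, was 46.4% G and C, and lay inside peaks over all 250 of its bases in each of the 4 lists. That before the Jak2 start held 37 CG dinucleotides, was 80.8% G and C, and had 0 bases in peaks in each list. Cd274 had 11 CG dinucleotides and Pdcd1lg2 had 3 in their windows, again with 0 bases in peaks in any list. The median over the 32851 promoters of the RefSeq table was 6.0, with 71.0% of them holding more CG than Rln1 and 1.88% more than Jak2. Among the 4 members with an entry, the marked promoter and the unmarked one of Pdcd1lg2 thus had about the same low CG count. Of the 4 members Rln1 alone had the letters TATAAA (both strands searched) in this window, beginning 10 bases before the annotated start. That motif was found in 12.4% of all promoters of the table, and a match of letters is a description, not a site in use. The 200 bases around the strongest replicated peak between Insl6 and Plgrkt held 0 CG dinucleotides and were 39.0% G and C.

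Rln1 was covered nearly from end to end. Peaks covered 2928 of its 3501 bases in replicate 1 (83.6%), 3330 in replicate 2 (95.1%) and 3321 in both the replicated and the pooled list (94.9%). Replicate 1 was the lower of the replicates, and in both the larger part of the gene was covered. No other gene among the 21911 was covered over as large a share in replicate 1 or in replicate 2, so that Rln1 makes up the 0.00456% that reached it. In the replicated and pooled lists 0.00913% did, which is Rln1 and 1 other gene, the short Hils1, which encodes a linker histone of spermatids, with 95.6% of 864 bp covered in the replicated list. That gene was named after its value was seen. Rln1 was chosen with its marking known, so its place among all genes is a description and no test. Short genes need fewer covered bases for a large share, and genes of like length were not compared.

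Within 5 kb on either side of the Rln1 start, 5572 bases were covered in replicate 1, 6972 in replicate 2, 6863 in the pooled list and 6439 in the replicated list. This placed Rln1 at rank 11 of all genes in replicate 1, rank 2 in replicate 2, rank 3 in the pooled list and rank 5 in the replicated list. A base in that window was covered in 10.4% of all genes in the replicated list, 14.2% in the pooled list, 15.7% in replicate 1 and 19.8% in replicate 2. Among the 2268 such genes of the replicated list the median was 522 bases. The genes next to Rln1 in the order of the replicated list were Dpm3 with 6487 bases and Hes1 with 6348. Rln1 had a peak within 1 kb of its start in all 4 lists, where 3.0% of all genes did so in the replicated list, 4.48% in the pooled list, 4.46% in replicate 1 and 6.28% in replicate 2. On chromosome 19 the share was 2.65% of 718 genes in the replicated list. These values include those by which Rln1 was chosen.

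The parts of the gene were not covered alike. The single intron of the coding transcript (29332167 to 29334385) was covered over 90.6% in replicate 1 and 96.5% in replicate 2. Exon 1, which holds the start of the prohormone (29334386 to 29334670), was covered over 77.9% in replicate 1 and 86.3% in replicate 2. Exon 2 (29331707 to 29332166) differed most, with 34.6% in replicate 1 and 88.3% in replicate 2. The last 537 bp of the annotated gene, past the coding transcript, lay wholly in peaks in all 4 lists.

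Coverage went on upstream of Rln1 for 5 to 6 kb and was thinner downstream. In the kilobase before the start it was 66.5% in replicate 1 and 73.2% in replicate 2, and in the next kilobase 32.7% and 59.3%. It was lowest in the third, at 22.0% in replicate 1 and 51.0% in replicate 2, and higher again at 59.5% and 73.4% in the fourth and 79.7% and 65.3% in the fifth. In the sixth kilobase replicate 1 had 0% and replicate 2 had 54.4%, and in the seventh to the ninth both had 0%. In the tenth replicate 1 had 14.0%, a lone peak of 140 bp (29343691 to 29343830), and replicate 2 had 0%. Past the other end of the gene the first kilobase was covered over 4.00% in replicate 1 and 25.4% in replicate 2, and the second over 4.20% and 35.1%. Both replicates thus had a block over the gene and its start, a thinner part, and a block 3 to 5 kb upstream.

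**Figure D1:**
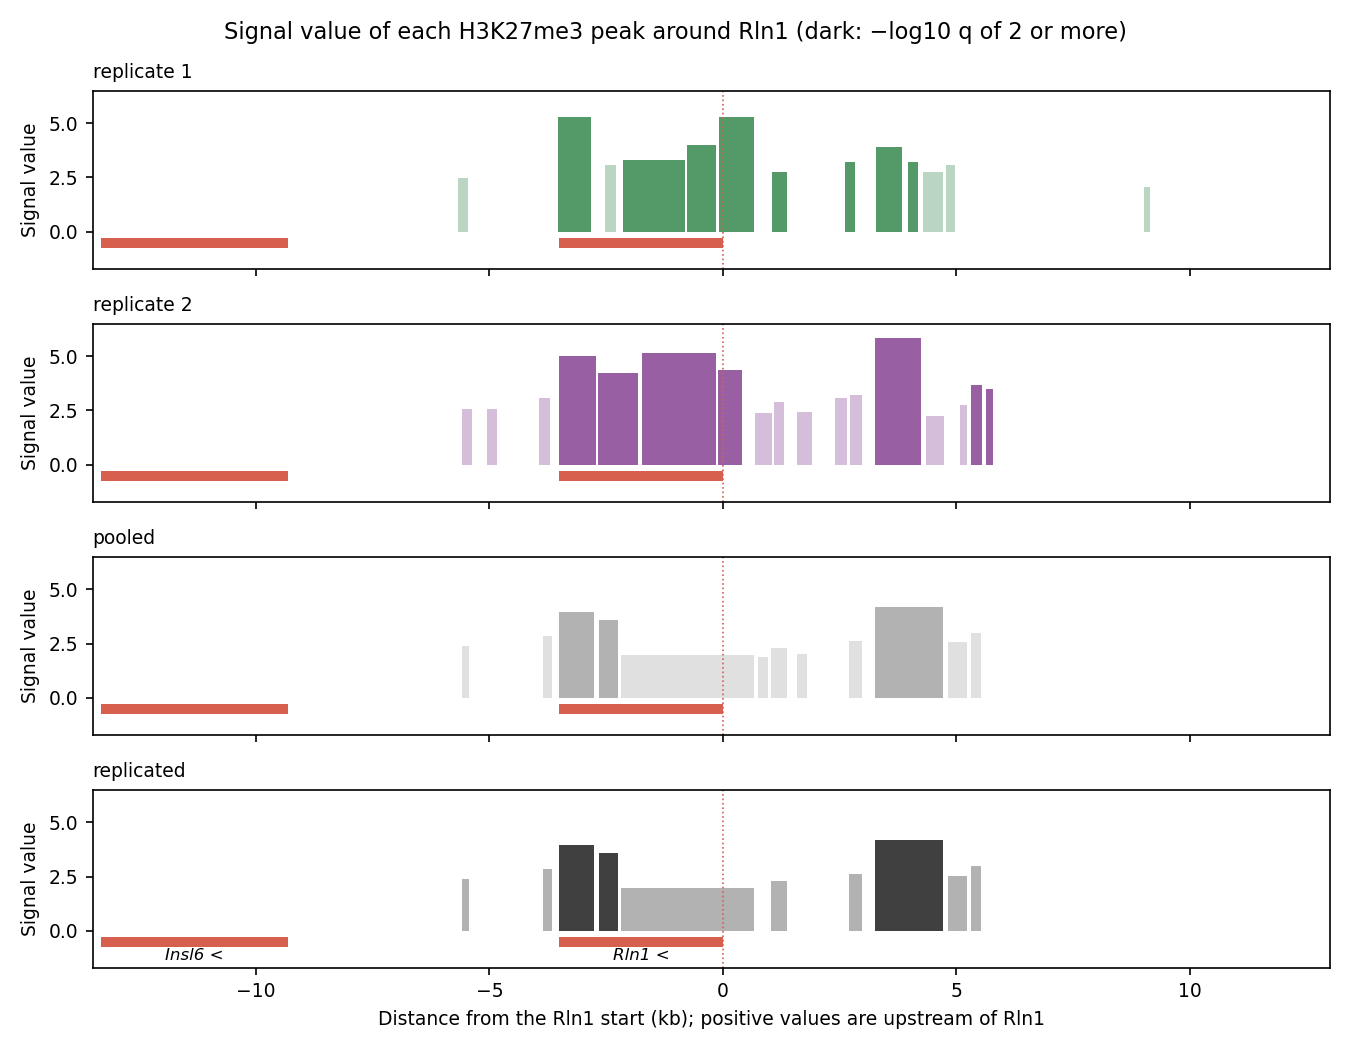
Each bar is 1 peak, placed by its distance from the Rln1 start in kb (positive values are upstream) with the authors' signal value as its height, in 4 panels for the 4 lists. Dark bars have a −log10 q of 2 or more, red boxes are the annotated genes, and the tallest bars reach 5.28 in replicate 1, 5.82 in replicate 2 and 4.20 in the pooled and replicated lists.

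Of the peaks between Insl6 and Plgrkt, replicate 1 had 13, replicate 2 had 17, the pooled list 12 and the replicated list 10. The authors' signal value, a score per peak whose definition is not stated, ran from 2.05 to 5.28 in replicate 1 with a median of 3.19, and from 2.25 to 5.82 in replicate 2 with a median of 3.06. Both medians lay below those of the whole lists, 3.84 and 3.73. Of the 13 peaks of replicate 1, 8 had a −log10 q of 2 or more by the authors' values, against 30.8% of its whole list, and of the 17 of replicate 2, 7 had one, against 12%. In the replicated list it did so in 3 of 10 peaks, against 10.9% of the list. The widest peak measured 1326 bp in replicate 1 and 1592 bp in replicate 2, both inside Rln1.

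Peaks of high signal value stood at the far end of the gene, at its start and upstream of it. At the far end the peak of replicate 1 (29331130 to 29331838) had a signal value of 5.28 and a −log10 q of 6.95, and that of replicate 2 (29331151 to 29331945) had 5.0 and 5.94. The start was crossed by a peak in replicate 1 (29334596 to 29335335) with a signal value of 5.26 and a −log10 q of 6.39, and by one in replicate 2 (29334569 to 29335080) with 4.38 and 3.88. Upstream, the peak of replicate 2 (29337937 to 29338921) had the highest signal value of its stretch, 5.82, with a −log10 q of 7.61, above 98.8% of that list in signal value. The peak of replicate 1 there (29337950 to 29338502) had 3.90 and 3.24, above 50.9% of its list. The upstream block was therefore the strongest in replicate 2 and not in replicate 1, and the far end of the gene was strong in both. In replicate 2 the intron also held a peak (29332938 to 29334529) with 5.15 and 5.88, above that at the start.

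Over the start itself the pooled and replicated lists held a peak of another kind. It was 2849 bp wide (29332497 to 29335345), with a signal value of 1.99, a −log10 p of 2.80 and a −log10 q of 0.114, and 0.0131% of replicated peaks had a lower signal value. The same bases were held by narrower peaks with −log10 q up to 6.39 in replicate 1 and up to 5.88 in replicate 2. With the replicated list limited to a −log10 q of 2 or more, coverage of Rln1 fell to 32.8% of the gene and no peak lay within 1 kb of its start, where 0.589% of all genes kept one, so the call at the start in that list rests on this wide peak.

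To find the borders, neighbouring peaks no more than 3 kb apart were merged into domains. The domain over Rln1 ran from 29329075 to 29340206 in the replicated list, 11132 bp with 10 peaks and 63.4% of its bases covered. In replicate 1 it ran from 29328987 to 29339648 (10662 bp, 12 peaks, 54.4% covered), and in replicate 2 from 29329090 to 29340467 (11378 bp, 17 peaks, 68.4% covered). The borders of the replicates were 103 bp apart on the Insl6 side and 819 bp apart on the Plgrkt side. In the replicated list the domain reached 2095 bp past the gene end and 5536 bp upstream of the start. The peak that sets this upstream border overlapped no peak of replicate 1. By length it was number 390 of 14456 domains of the genome and number 18 of 609 on chromosome 19. With a joining distance of 1 kb the domain of the replicated list broke in the thin part, leaving 5220 bp over the gene and 2830 bp upstream. That of replicate 1 broke there too, leaving 4920 bp and 2362 bp, while replicate 2 stayed whole at 11378 bp and the pooled list held 9391 bp over the start. On the Insl6 side the outermost peak also split off in every list but that of replicate 2. The part over the Rln1 start then began at 29331130 in replicate 1 and at 29329090 in replicate 2.

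The replicates shared more of their bases over Rln1 than along the chromosome. Lists that each cover most of a gene must overlap over much of it, and Rln1 was chosen with its marking known. The higher share is therefore no measure of agreement between the replicates. In the gene 2847 bases were covered in both, 81 in replicate 1 only and 483 in replicate 2 only, so that 83.5% of the bases covered in either were covered in both. Between Insl6 and Plgrkt this share was 55.9%, and over all of chromosome 19 it was 16.0%. Of the 13 peaks of replicate 1 between Insl6 and Plgrkt, 11 overlapped a peak of replicate 2, and of the 17 of replicate 2, 10 overlapped one of replicate 1. Both were called against the same control alignment, and the part of that in the overlap was not tested.

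Repeats moved with the gaps. Inside the domain, 14.0% of the bases in replicated peaks were soft-masked as repeats in the reference, against 39.8% in the gaps between them. The same shares were 15.0% and 34.8% in replicate 1 and 14.4% and 41.5% in replicate 2. The peaks held 12.3 CG dinucleotides per kb and the gaps 6.88 in the replicated list, with 9.59 over chromosome 19. The contrast was smaller in the replicates, at 12.4 and 8.22 in replicate 1 and 11.3 and 8.34 in replicate 2. The part of repeats in where the peaks break was not tested.

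Jak2 showed none of this. No peak of any of the 4 lists touched its 61253 bp, in its 25 exons or in its introns. Of the 4143 genes as long or longer, 21.4% were touched by a replicated peak and 39.2% by a peak of any of the 4 lists, so genes of this length without a peak were the more common kind. Within 5 kb of the Jak2 start 232 bases were covered in replicate 1 and 0 in replicate 2, the pooled list and the replicated list. Those 232 bases were a lone peak upstream (29246958 to 29247189), 4639 bp from the start, with a signal value of 2.47 and a −log10 q of 0.891. The Jak2 gene was 24.8% soft-masked, close to the 23.4% of the Rln1 domain, and its G and C content was 39.4% against 40.5%.

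Between the end of Jak2 and the first peak of the Rln1 stretch lay 15994 bp without a peak in the replicated and pooled lists, 15906 bp in replicate 1 and 16009 bp in replicate 2. With all peaks kept, the border thus fell at nearly the same base in both replicates. It was set by small peaks of low −log10 q, 225 bp with 0.891 in replicate 1 and 210 bp with 0.80 in replicate 2. With replicated peaks limited to a −log10 q of 2 or more, the distance from Jak2 was 18075 bp. The whole of Insl6 lies in this peak-free interval. The 8263 bp between Jak2 and Insl6 held 0 peaks in all 4 lists.

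Insl6, the second hormone gene, was not covered at any base in any list. Of genes as long as Insl6 or longer, 24.8% were touched by a peak of any of the 4 lists. Genes of this length or longer without a peak were therefore the more common kind. The Insl6 start is 9314 bp from that of Rln1. The nearest peak ended the Rln1 stretch 3631 bp from the Insl6 start in replicate 1 and 3734 bp in replicate 2. Within 5 kb of the Insl6 start 225 bases were covered in replicate 1, 431 in replicate 2 and 163 in the replicated list, all of them in the outermost peaks of the Rln1 stretch. These had −log10 q of 0.891 in replicate 1 and 0.80 in replicate 2. The gap between Insl6 and Rln1 was covered over 4.56% in replicate 1, 11.8% in replicate 2 and 6.31% in the replicated list, and the gap from Rln1 to Plgrkt over 19.7%, 27% and 24.2%.

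**Figure D2:**
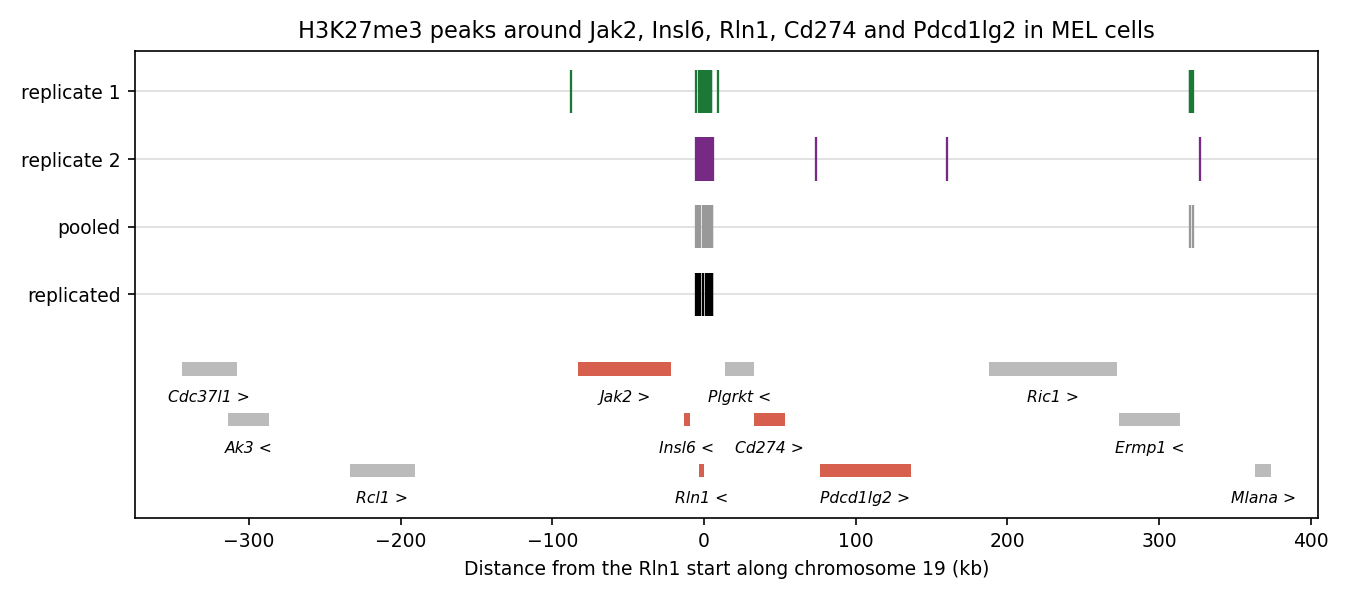
Each vertical tick is the middle of 1 H3K27me3 peak, by list, against the distance from the Rln1 start in kb along chromosome 19. Boxes below are protein-coding genes with their direction, red for the 5 members, and in all 4 lists the ticks gather at Rln1, with lone ticks beside Jak2 in replicate 1 and on either side of Pdcd1lg2 in replicate 2, and a few between Ermp1 and Mlana in every list but the replicated one.

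Cd274 and Pdcd1lg2, the immune ligand genes on the far side, had 0 bases in peaks in all 4 lists. Of genes as long as Cd274 or longer, 17.1% were touched by a replicated peak, and 21.2% of those as long as Pdcd1lg2 or longer. By any of the 4 lists these shares were 31.4% and 39.1%. From the end of the Rln1 domain to the Cd274 start lay 27248 bp in the replicated list, 27806 bp in replicate 1 and 26987 bp in replicate 2. In replicate 1 the lone peak of 140 bp upstream of the domain lay nearer, 23624 bp from the Cd274 start. Within 5 kb of the Cd274 start no list held a peak. Near Pdcd1lg2 replicate 2 held a lone peak of 140 bp (29408523 to 29408662), 2257 bp upstream of the start, with a signal value of 2.80 and a −log10 q of 1.13, and another beyond the gene (29494462 to 29494601) with 2.32 and 0.593. Replicate 1 had neither, and neither is in the replicated list.

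From the Jak2 start to the Pdcd1lg2 end, 219334 bp in all, peaks covered 2.71% in replicate 1, 3.61% in replicate 2 and 3.22% in the replicated list. The interval between Insl6 and Plgrkt held 100% of those covered bases in replicate 1 and the replicated list and 98.2% in replicate 2. The marking of the locus is thus that of Rln1 and its flanks.

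**Figure D3:**
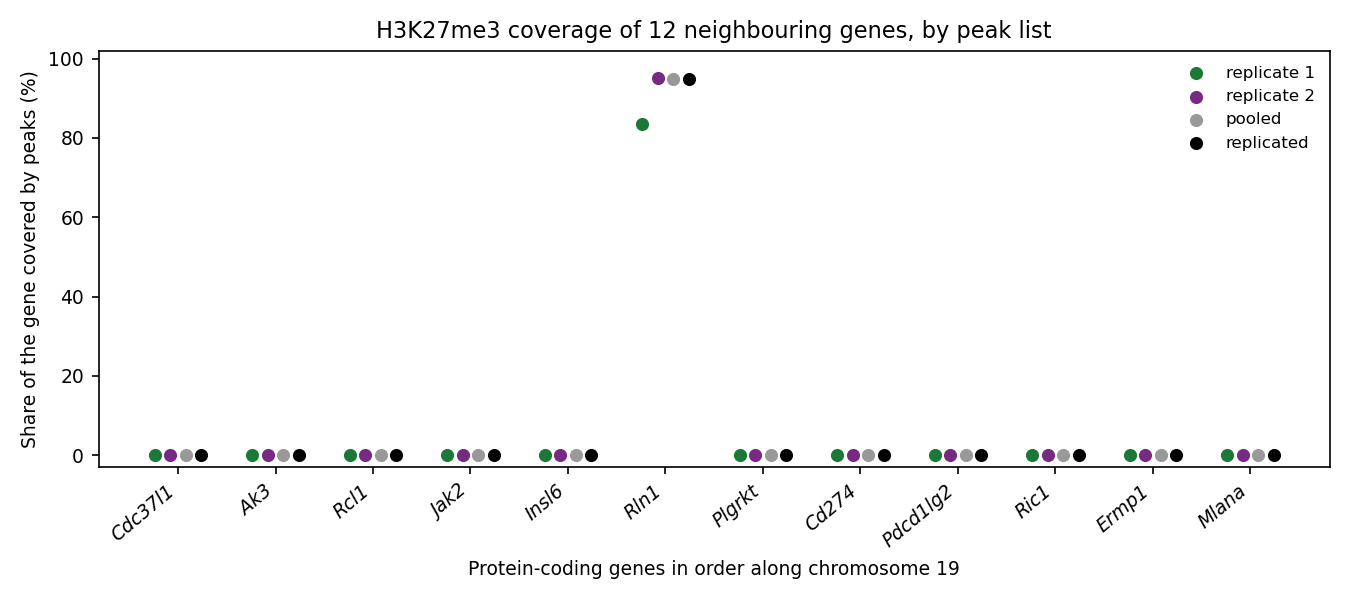
Points give the share of each gene covered by H3K27me3 peaks, in percent, for 12 protein-coding genes in order along chromosome 19 and for each of the 4 lists. Rln1 lies between 83.6% and 95.1%, and the 11 others are at 0 in every list.

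The other genes of the wider neighbourhood were free of peaks too. All 12 protein-coding genes from Cdc37l1 to Mlana were examined, and Rln1 was the 1 with a base in a peak in any list, where 11.5% of all genes were touched by a replicated peak, 15.0% by a pooled one, 16.4% by one of replicate 1 and 20.4% by one of replicate 2. The other neighbours include Rcl1, which acts in ribosomal RNA processing, Ak3, a mitochondrial adenylate kinase, and Mlana, a melanocyte antigen. On the Jak2 side the nearest replicated peak before the stretch ended at 28985421, 343653 bp away, and on the Pdcd1lg2 side the next began at 29835765, 495558 bp away. Replicate 1 had a peak closer on the Jak2 side (81797 bp) and replicate 2 one closer on the other (68055 bp), both the lone peaks given above. Farther out on the Pdcd1lg2 side, between Ermp1 and Mlana, lay 4 peaks of replicate 1 with 1033 bases, 1 of replicate 2 with 244 and 2 of the pooled list with 640. The first of replicate 1 (29654695 to 29654884) had a −log10 q of 2.41. They brought the next peak on that side to 310864 bp in replicate 1 and 314823 bp in the pooled list. Of all covered bases from Cdc37l1 to Mlana, the interval between Insl6 and Plgrkt held 82.4% in replicate 1, 93.7% in replicate 2, 92.1% in the pooled list and 100% in the replicated list.

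Set beside genes related to the members elsewhere in the genome, Rln1 had the most bases covered within 5 kb of its start in each list. Since Rln1 was chosen with its marking known, this place follows from the choice and is not a result about the family. Of the 9 ligands of the relaxin and insulin family 1 was marked in the replicated list (a peak within 1 kb of the start), Rln1 itself. The share over all genes was 3.0% in that list, so none marked besides Rln1 is near that share. Rln3, a relaxin of the brain, Insl3, which guides the descent of the testis, Insl5, a hormone of the gut, and Ins1, Igf1 and Igf2 had 0 bases within 5 kb of the start in all 4 lists. Ins2 had 198 bases in replicate 1, 704 in replicate 2 and 0 in the replicated list, at an annotated outermost start that belongs to a gene model of 64726 bp and is not shown to be the insulin promoter. None of the 4 relaxin family receptors was marked in the replicated list, which is also near the 3.0% of all genes. Rxfp1, the receptor for relaxin, came nearest, with 960 bases within 5 kb in replicate 1, 547 in replicate 2 and 189 in the replicated list.

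None of the 4 Janus kinase genes had a base of its body in a peak in any list, and since 11.5% to 20.4% of all genes were touched in a list, 0 of 4 is near that share and no result about these kinases. Jak1 had 140 bases within 5 kb of its start in replicate 1 and 0 in replicate 2, and Jak3 and Tyk2 had 0 in both. Of 11 genes of cytokine receptors that signal through Jak2, none was marked in the replicated list. Epor, the erythropoietin receptor gene, had 208 bases within 5 kb in replicate 1, 204 in replicate 2 and 0 in the replicated list. Of 7 Stat factor genes and 6 genes of Jak inhibitors none was marked in the replicated list. The share over all genes was 3.0% there, so none of 11, 7 or 6 is near that share and no result about these families. Stat5b, a factor that Jak2 phosphorylates, had 2056 bases within 5 kb in replicate 1 and 517 in replicate 2. Socs3, an inhibitor of Jak kinases, had 2093 and 2204, the most of these genes after Rln1 in the replicated list at 2700. With the promoter widened to 2.5 kb on each side, 5.97% of all genes were marked in the replicated list. Stat5b was then marked by 78 bases and Socs3 by 385. They were the 2 marked of the 49 related genes other than the members, which is near the share over all genes and no result about them.

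Of the 8 B7 family ligand genes found in the annotation and the 5 genes of their receptors, none was marked in the replicated list. There 3.0% of all genes were marked. Pdcd1, which encodes PD-1, had 0 bases within 5 kb of its start in all 4 lists. Inside the Pdcd1 gene, peaks covered 0.983% in replicate 1, 1.09% in replicate 2 and 0% in the replicated list. Of the 8 ligand genes 1 was touched by a replicated peak, 3 by one of replicate 1 and 4 by one of replicate 2. For the 5 receptor genes these counts were 0, 1 and 3, where 11.5%, 16.4% and 20.4% of all genes were touched. The genes are few, so these counts are no result about the families. Leaving out the 5 members, 0 of 49 related genes were marked in the replicated list, 2 in replicate 1 (Stat5b and Cd276) and 1 in replicate 2 (Ins2). At the shares over all genes given above, few marked genes would be found among 49, so the count is not a result about these families.

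**Figure D4:**
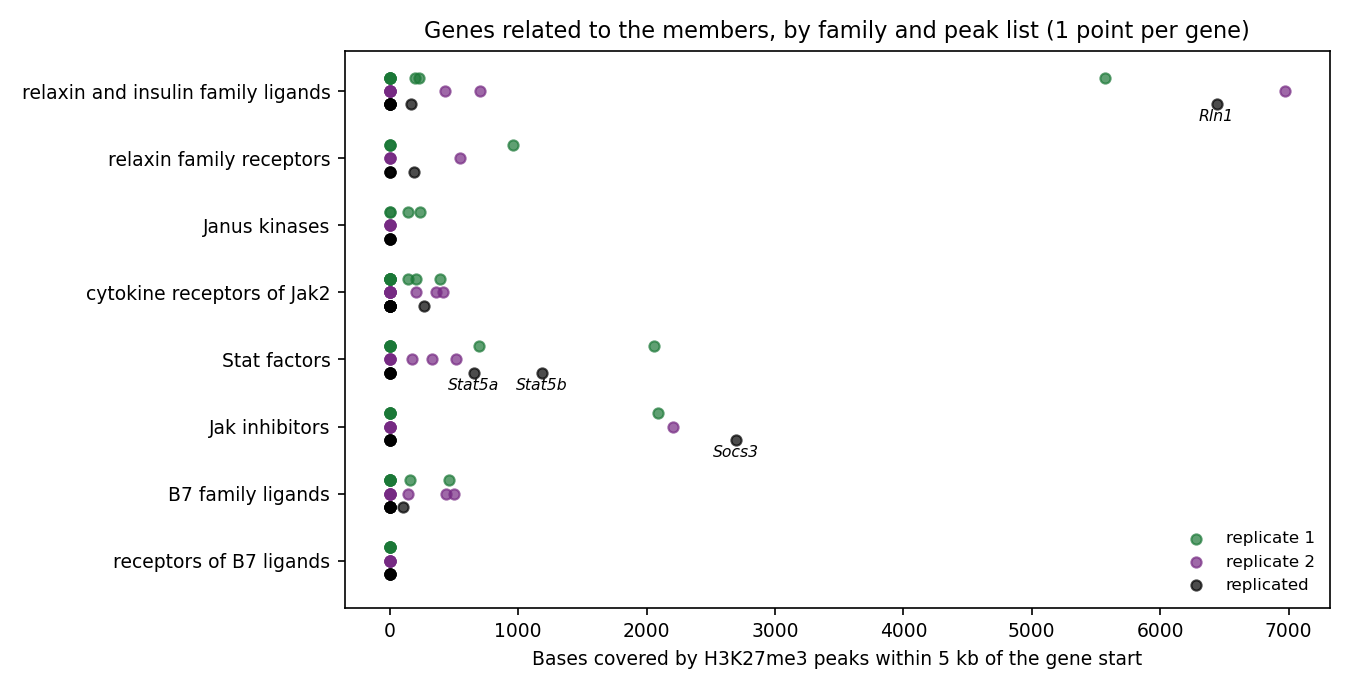
Each point is 1 gene, placed by the bases covered by peaks within 5 kb of its start (linear axis), in rows for 8 families and coloured by list. Rln1 stands at 5572, 6972 and 6439 in replicate 1, replicate 2 and the replicated list, and Socs3 at 2700 is the next highest of the replicated values.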

How the data were processed

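ChIP-seq of H3K27me3 covered 2 replicates of 1 group, MEL cells, with group and replicate number taken from the labels. Per the labels and the deposited descriptions, peaks were called for each replicate from its mm10 alignments, with 1 control alignment shared by both. The pooled list came from both sets of alignments, and the replicated list from the other 3 lists. For aligner, peak caller and the rule of the replicated list: not given in the sources used here. For each peak the authors deposited a signal value and another integer, each a score of unstated definition, and a −log10 p-value and −log10 q-value. No read counts were used, so no counting interval could be given. An older list on mm9 was not analysed here.

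Genes were the protein-coding genes of GENCODE mouse release 21 on GRCm38, the longest per symbol. Covered bases come from the union of peaks. Marked genes are those with at least 1 bp of a peak no further than 1 kb from the outermost start. Peaks within 3 kb were joined into domains. Promoter sequences are from RefSeq, where 4 of the 5 members matched; Insl6 is the other. The genes named are the members, all protein-coding genes of the window, and fixed lists of related genes, of which Hhla2 had no entry in the annotation. The members and lists were chosen with earlier results of these data known, so no test was run. Alternatives were the other 3 lists in place of the replicated one, replicated peaks limited to −log10 q of 2 or more or to the upper 50% by signal value, joining within 1 or 10 kb, other promoter definitions and every annotated transcript start. The code was tested on simulated data. Python 3.11, numpy 2.4.6 and matplotlib 3.10.9 were used.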

Additional observations from a re-analysis of the deposited data

How the results depend on the processing

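Jak2, Insl6, Cd274 and Pdcd1lg2 kept 0% of the gene covered in the pooled list and in each replicate's own list. The replicated list was also limited to −log10 q of 2 or more or to its upper 50% by signal value. These limits only remove peaks, so they could not change a 0. Both limits gave the same values for Rln1 and the locus: 32.8% of Rln1 covered, 2607 bases within 5 kb of its start, 1.19% of the locus covered, and 18075 bp from the Jak2 end to the next peak, with no domain over the Rln1 start and so no length. With 1 replicate left out, which leaves the other's own list, Rln1 was covered over 83.6% to 95.1%, Jak2 had 0 to 232 bases within 5 kb of its start, the border lay 15906 to 16009 bp from Jak2, and 1 to 2 related genes were marked. Joining peaks within 1 kb gave a domain of 5220 bp over the Rln1 start, and promoters of 2.5 kb on each side marked 2 related genes, Stat5b and Socs3. Of 98 alternative values 73 moved by less than the spread between replicates or, for counts, by no more than 1.5 times. Many of these 73 were a 0 that stayed 0, in part under limits that cannot raise it, so the tally is no measure of stability. The covered share of Rln1, the bases near its start and the covered share of the locus moved under both limits. Read depth is unknown, so bare stretches may hold the mark below what these lists call.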

Other observations

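The Rln1 stretch stood far from other marked sequence. Of 503 domains of 10 kb or more in the replicated list with a neighbour on both sides, it had the largest distance to the nearest other domain, 343653 bp, where the next largest was 101509 bp and the median 5125 bp. It was also number 1 of 1146 such domains in the pooled list, at 314823 bp. In replicate 2 it was number 10 of 1897, at 68055 bp. In replicate 1 it was number 610 of 980, at 4042 bp, because a lone peak of 140 bp with a −log10 q of 0.181 lay upstream (29343691 to 29343830). This measure was chosen after its values were seen.

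The −log10 q of a replicated peak is the one from the pooled list, and it was often below those of the replicates. Among the 27732 replicated peaks that overlap peaks of both replicates, 61.6% had a −log10 q below the highest overlapping peak of each replicate, and in the Rln1 stretch 6 of 8 did. The 2849 bp peak over the Rln1 start was among the 10 widest of the replicated list, and it had the lowest −log10 q of those 10.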
